A study of Mus musculus with 25 samples.

Results

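The response of spinal cord astrocytes to lipopolysaccharide (LPS) was compared between mice with and without Stat3 in cells expressing Gfap-Cre. LPS is a bacterial cell wall component that sets off systemic inflammation when injected. The measure was an interaction, the log2 response to LPS in Stat3cKO mice minus the log2 response in wild-type (WT) mice, so a value above 0 is a change that was more positive without Stat3. Of 10341 genes counted in both genotypes, 10122 had over 10 counts in at least 3 libraries of each LPS group and are the members described here. The other 219 missed that threshold. The third-highest count in the poorer LPS group was 11 for Gpr137c, just inside, and 10 for Cand2, just outside. Some 137 members had no chromosome given in the annotation deposited with the Stat3cKO counts.

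All mice were labelled C57BL6 and carried GfapCre and Ribotag fl/fl, so that Cre driven by the Gfap promoter added a haemagglutinin tag to ribosomes. Ribosome-associated messenger RNA was precipitated from thoracic spinal cord through that tag (RiboTag). WT mice carried these alleles alone, and Stat3cKO mice also carried Stat3 fl/fl. The groups were uninjured WT (4 libraries), WT LPS (4), uninjured Stat3cKO (3) and Stat3cKO LPS (4), where LPS stands for 1 intraperitoneal injection of 5 mg/kg studied 24 h later. The labels give no age, sex or batch, and do not say which Stat3 exons were floxed. Libraries held 52389509 to 106135394 counts over the shared genes. The labelled cell type carried its defining transcripts: the astrocyte glutamate transporter Slc1a2 stood at 10138 to 14461 CPM (counts scaled to a common library total) in uninjured WT and 11176 to 12784 CPM in Stat3cKO LPS libraries. Fewer cells of a type and less RNA per cell cannot be told apart in such bulk samples.

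STAT3 is a transcription factor that IL-6 family cytokines such as IL-6, LIF and oncostatin M activate through the shared receptor gp130 (Il6st) and Janus kinases. It enters the nucleus as a dimer and binds gene promoters, and it drives acute phase genes and Socs3, its own feedback inhibitor. In astrocytes it is known for its part in reactive changes such as the rise of Gfap and in scar formation. STAT3 dimers bind a spaced palindrome, TTCNNNGAA. Interferons are antiviral cytokines, and many of the genes that type I interferons induce carry a promoter element whose core is GAAANNGAA.

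Stat3 itself (chr11:100885098-100939540, minus strand, GRCm38) stood at 139.6, 93.8, 138 and 94.2 CPM in the 4 uninjured WT libraries and at 8.65, 20 and 7.92 CPM in the 3 uninjured Stat3cKO libraries. After LPS it stood at 163, 336, 477 and 259 CPM in WT and at 302, 118, 86.1 and 199 CPM in Stat3cKO. Every uninjured Stat3cKO library was below every WT library, whereas the LPS groups overlapped. The genotype difference was log2 -3.26 ± 0.47 (adjusted p = 0.00344) in uninjured mice and -0.81 ± 0.38 (adjusted p = 0.443) after LPS, all by edgeR's quasi-likelihood test. A gene count sums all exons, deleted or not, so the level after LPS does not check the deletion. Its response was called in both genotypes, at 1.41 ± 0.39 in WT and 3.86 ± 0.48 in Stat3cKO, and the interaction was 2.45 ± 0.58 (adjusted p = 0.0739).

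Some libraries stood apart before any comparison. WT LPS replicate 3 was above the other WT LPS libraries in some interferon genes, such as Ifit1, Ifit2 and Ifit3, but not in others, such as Igtp and Ifi44. Cxcl10, an interferon-induced chemokine, stood at 11.2, 2.75, 248 and 15.9 CPM in WT LPS replicates 1 to 4. Without WT LPS replicate 3, 119 interactions were called in place of 39, 86 above 0 and 33 below, and the 39 were all among them. Of chromosome Y, 4 genes were listed in the Stat3cKO table (Eif2s3y, Ddx3y, Kdm5d and Uty) and 0 in the WT table. Ddx3y had 3392 to 5905 counts in the Stat3cKO libraries. Xist, the other sex-linked gene looked for, was listed in neither, so these genes do not show the sex of the WT mice. Sex and genotype cannot be told apart here. The labels do not say that libraries of a group came from separate animals or days, so p-values measure the spread between these libraries.

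Without Stat3, the LPS response of the protease inhibitor Serpina3n and the lipocalin Lcn2 was smaller, and that of interferon-induced genes such as Ifit1, Igtp and Cd274 was larger. The interaction passed an adjusted p of 0.05 for 39 genes, 31 above 0 (0.300% of all genes tested) and 8 below 0 (0.0774%), and 960 genes had an unadjusted p under 0.05. Members made up 38 of them, 31 above and 7 below 0. The exception was Zfp322a, a zinc finger gene with 2 counts in all 4 Stat3cKO LPS libraries together. By response, 301 members rose in WT (2.91% of genes tested rose) and 213 fell (2.09%), while 479 rose in Stat3cKO (4.63%) and 220 fell (2.16%). Both responses were called in the same direction, with no call on the interaction, for 204 members (1.97%), the kept responses. A lost response was called in WT and not in Stat3cKO (6 members), and a reduced one was called in both but smaller in Stat3cKO (2). A gained response was called only in Stat3cKO (20) and an enlarged one in both but larger there (9), each with a called interaction. The last of the 38, Slc1a4, was called in opposite directions.

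A call in 1 genotype and not in the other was rarely a called difference. Of 298 members called in WT but not in Stat3cKO, 6 had a called interaction and 262 moved in the same direction in both. Of 483 called in Stat3cKO but not in WT, 20 had a called interaction and 391 moved in the same direction. The median SE of the interaction was 0.60 on the log2 scale, so many smaller differences were not detectable with these libraries. The LPS libraries of the 2 genotypes did not overlap for 33 of the 38 called members, against 7.42% of all genes tested. In 31 of the 38 the genotypes differed more after LPS than uninjured, and in the other 7, Cd68, Cnr1, Frem2, Ifi44, Ifit1, Ifitm3 and Slc14a2, the uninjured difference was the larger.

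**Figure D1:**
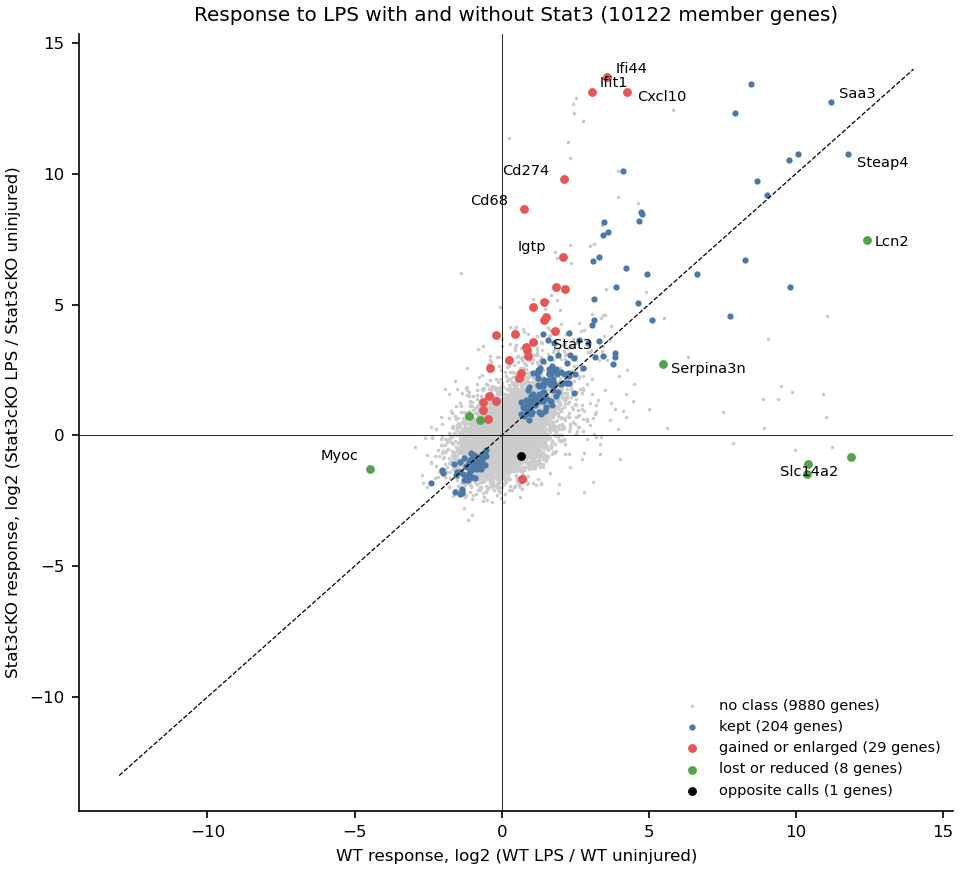
Each point is 1 of 10122 member genes, with its log2 response to LPS in WT on the x axis and in Stat3cKO on the y axis. The dashed line marks equal responses; the 29 gained or enlarged genes lie above it except Lgi4, and Lcn2 and Serpina3n lie to its right.

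Serpina3n, a secreted serine protease inhibitor and a widely used marker of reactive astrocytes (chr12:104406729-104414329, plus strand), stood at 49.3, 183, 132 and 88.3 CPM in uninjured WT and at 2658, 7683, 5651 and 4007 CPM in WT LPS libraries. In Stat3cKO it stood at 47.9, 33.8 and 36.3 CPM uninjured and at 191, 299.8, 327 and 215 CPM after LPS. LPS was above uninjured in both genotypes, and every WT LPS library was above every Stat3cKO LPS library. It rose by 5.47 ± 0.40 in WT and by 2.71 ± 0.40 in Stat3cKO, and the interaction was -2.75 ± 0.49 (adjusted p = 0.0196). It was called in 13 of 15 fits that each left out 1 library (adjusted p 0.00579 to 0.0549), and the call was lost without Stat3cKO uninjured replicate 1, at -2.57 (adjusted p = 0.0549), or Stat3cKO LPS replicate 1, at -2.63 (adjusted p = 0.0502).

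Lcn2, a secreted lipocalin that binds bacterial siderophores (chr2:32384633-32388252, minus strand), stood at 0.189, 0.135, 0.0741 and 0.153 CPM in uninjured WT and at 243, 1662, 620.4 and 536 CPM after LPS. In Stat3cKO it stood at 0.122, 0.0890 and 0.994 CPM uninjured and at 44.9, 71.6, 139 and 39 CPM after LPS. It was almost silent in all uninjured libraries, high after LPS in both genotypes, and higher in each WT than in each Stat3cKO LPS library. The responses were 12.41 ± 0.94 in WT and 7.46 ± 0.88 in Stat3cKO. The interaction was -4.95 ± 1.0 (adjusted p = 0.0334), with 1 uninjured Stat3cKO library at 0.994 CPM against at most 0.189 CPM in the other 6. It was called in 5 of 15 fits that each left out 1 library (adjusted p 0.0244 to 0.407), and without uninjured Stat3cKO replicate 3 it was -2.98 (adjusted p = 0.407). The difference after LPS alone was -3.38 ± 0.62 (adjusted p = 0.00512).

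Myoc, the secreted glycoprotein myocilin (chr1:162639155-162649693, plus strand), fell in WT and not past the threshold in Stat3cKO. It stood at 509.8, 685, 445 and 579.5 CPM in uninjured WT and at 30.6, 5.25, 24.4 and 40.3 CPM in WT LPS, against 903, 649 and 683 CPM uninjured and 349, 183, 247 and 461 CPM after LPS in Stat3cKO. The WT LPS libraries were far below all others, and the Stat3cKO LPS libraries were below the uninjured Stat3cKO ones. The response was -4.46 ± 0.46 in WT and -1.27 ± 0.43 (adjusted p = 0.0855) in Stat3cKO, and the interaction 3.20 ± 0.61 (adjusted p = 0.0230) was called in 10 of 15 fits that each left out 1 library (adjusted p 0.00559 to 0.0992). Ndufc2, a subunit of mitochondrial complex I, stood at 240.3, 203, 197 and 165 CPM in uninjured WT and at 122, 93.1, 134 and 133 CPM after LPS. In Stat3cKO it stood at 153, 136 and 153 CPM uninjured and 228, 225, 194 and 243 CPM after LPS. WT LPS libraries were thus the lowest and did not overlap with Stat3cKO LPS; the interaction was 1.34 ± 0.25 (adjusted p = 0.0219), called in 11 of 15 fits that each left out 1 library (adjusted p 0.0127 to 0.0893). Scg5, a secretory granule chaperone, fell by 1.10 ± 0.25 in WT and had a response of 0.73 ± 0.28 (adjusted p = 0.132) in Stat3cKO (interaction 1.83 ± 0.38, adjusted p = 0.0365). Its call held in 3 of 15 fits that each left out 1 library (adjusted p 0.00381 to 0.117).

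The 3 other lost responses were of scarce transcripts with 0 or 1 count in the uninjured WT libraries together. The urea transporter gene Slc14a2 had 0, 0, 0 and 0 counts in uninjured WT, 449, 260, 522 and 869 in WT LPS, 591, 485 and 406 in uninjured Stat3cKO and 448, 174, 205 and 116 in Stat3cKO LPS libraries. It was at least 590.0-fold higher in WT LPS than in uninjured WT, against a limit of 3 counts over the group, and at least 581-fold higher in uninjured Stat3cKO. The cannabinoid receptor gene Cnr1 and the extracellular matrix gene Frem2 each had 1 count in all uninjured WT libraries together. For Cnr1 the ratio of WT LPS to uninjured WT was 2266 (95% counting interval 406 to 89518), and for Frem2 it was 1941 (348 to 76701). All 3 LPS groups overlapped between genotypes, and the adjusted p for LPS alone was 0.879, 0.628 and 0.719. Slc1a4, a neutral amino acid transporter of astrocytes, stood at 264, 201, 246 and 268 CPM in uninjured WT and 296, 419, 482 and 341 CPM in WT LPS. It stood at 283, 331 and 272 CPM in uninjured Stat3cKO and 204, 161, 140.5 and 186 CPM in Stat3cKO LPS. It rose in WT (0.65 ± 0.18, adjusted p = 0.0424) and fell in Stat3cKO (-0.77 ± 0.19, adjusted p = 0.0191), with an interaction of -1.43 ± 0.26 (adjusted p = 0.0201). Of 15 fits that each left out 1 library, the Slc1a4 rise in WT was called in 3, the fall in Stat3cKO in 11 and the interaction in 10.

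**Figure D2:**
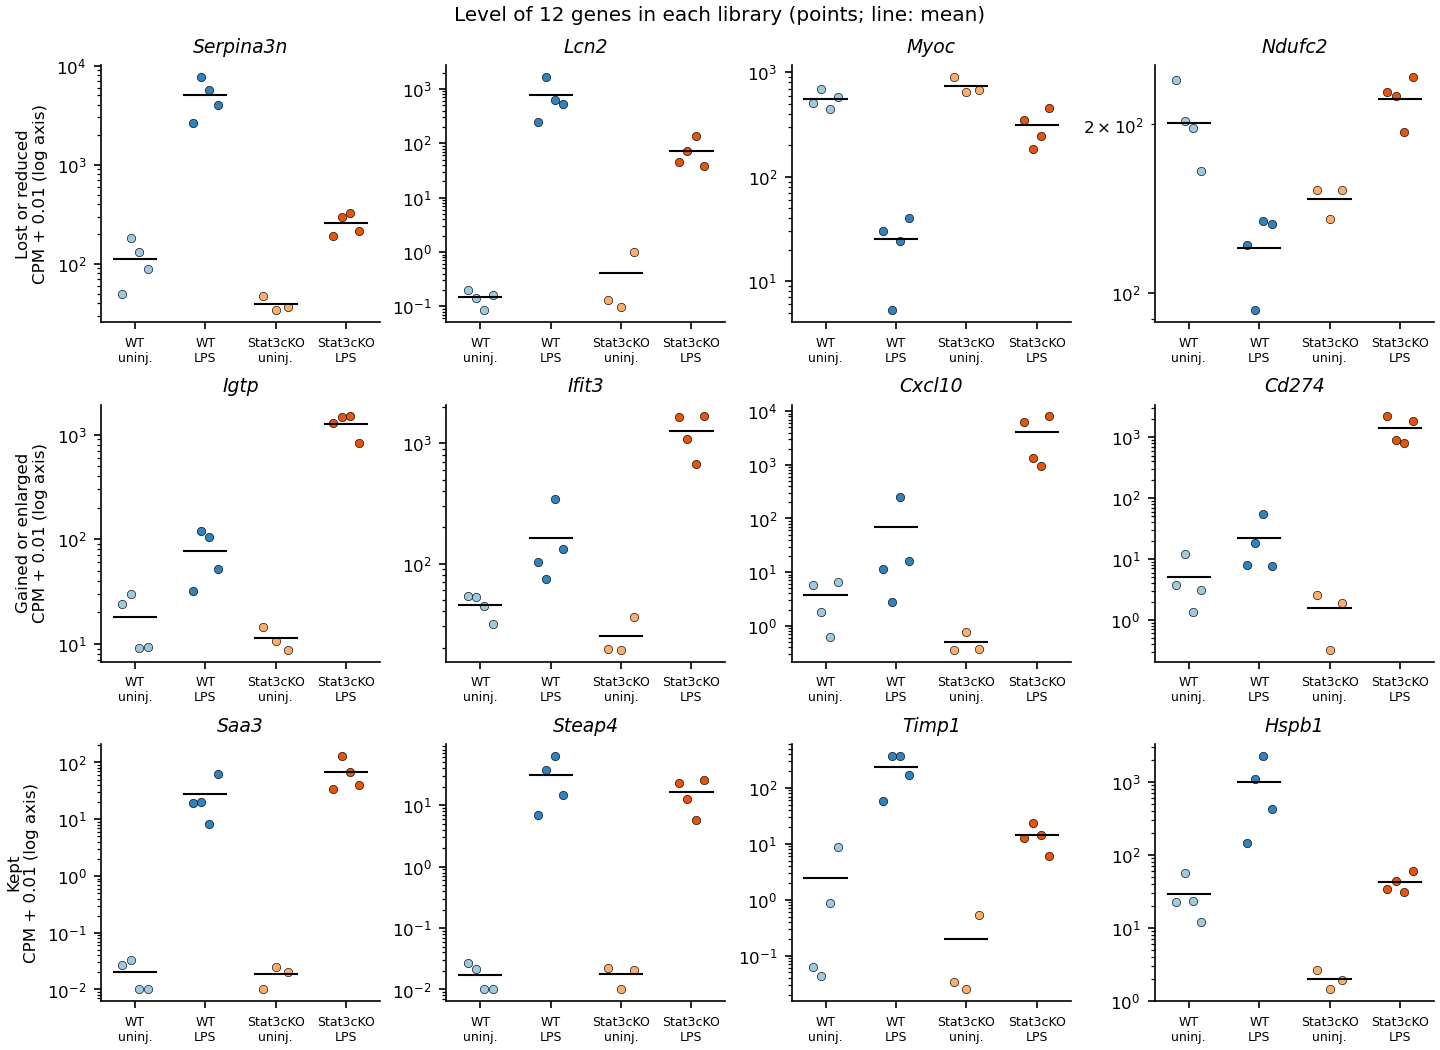
CPM plus 0.01 on log axes in each library (points) with group means (lines) for 4 lost or reduced (top), 4 gained or enlarged (middle) and 4 kept genes (bottom). Serpina3n and Lcn2 were lower in each Stat3cKO LPS library than in any WT LPS library, Igtp, Ifit3, Cxcl10 and Cd274 were higher in each, and Timp1 and Hspb1 were lower in both Stat3cKO groups by their means.

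Among the gained and enlarged responses, 28 rose in Stat3cKO and 1, Lgi4, fell. They were led by interferon-induced antiviral genes. Ifit3, of the IFIT family that binds viral RNA (chr19:34583531-34588731, plus strand), stood at 53.8, 52.7, 44.3 and 31.5 CPM in uninjured WT and 103, 73.9, 345 and 132 CPM in WT LPS. In Stat3cKO it stood at 19.6, 19.1 and 36 CPM uninjured and 1644, 1079, 668 and 1678 CPM after LPS. WT rose in every library, and each Stat3cKO LPS library was above all of them. The responses were 1.84 ± 0.40 and 5.67 ± 0.54, with an interaction of 3.83 ± 0.61 (adjusted p = 0.0102) that was called in 15 of 15 fits that each left out 1 library (adjusted p 1.57e-04 to 0.0431). Ifit2 stood at 36.1, 60.3, 79.1 and 31.9 CPM in WT LPS and at 641, 366, 253 and 419 CPM in Stat3cKO LPS, again without overlap, and its interaction was 3.45 ± 0.48 (adjusted p = 0.00424). Ifit1 had the smallest interaction p, 10.08 ± 1.18 (adjusted p = 9.95e-04), but the larger part of that lay in uninjured mice. There the genotypes differed by -6.54 ± 1.0 (adjusted p = 0.00616), with 224, 351, 202 and 108 counts in WT and 1, 2 and 5 in Stat3cKO. After LPS Ifit1 stood at 19.5, 6.50, 50.6 and 29.9 CPM in WT and 519, 146, 66 and 507 CPM in Stat3cKO, a difference of 3.54 ± 0.64 (adjusted p = 0.00480).

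Igtp, an immunity-related GTPase induced by interferon gamma (chr11:58199556-58207591, plus strand), stood at 24.3, 29.9, 9.10 and 9.39 CPM in uninjured WT and 32, 120.3, 105 and 52.5 CPM in WT LPS. It stood at 14.4, 10.8 and 8.74 CPM in uninjured Stat3cKO and 1280.2, 1480.1, 1493 and 834 CPM in Stat3cKO LPS. Uninjured libraries of the genotypes overlapped, and after LPS each Stat3cKO library was above each WT library. The responses were 2.09 ± 0.41 and 6.81 ± 0.59, and the interaction 4.72 ± 0.63 (adjusted p = 0.00314) was called in 15 of 15 fits that each left out 1 library (adjusted p 9.25e-04 to 0.0206). Cd274 encodes PD-L1, the ligand that restrains T cells (chr19:29367455-29388095, plus strand). It stood at 3.75, 12, 1.35 and 3.08 CPM in uninjured WT, 7.86, 18.6, 54.5 and 7.82 CPM in WT LPS and 2.52, 0.312 and 1.90 CPM in uninjured Stat3cKO. In the Stat3cKO LPS libraries it reached 2191, 895, 790.0 and 1832 CPM, above every other library. Its WT response was 2.13 ± 0.70 (adjusted p = 0.0906), its Stat3cKO response 9.81 ± 1.11 (adjusted p = 3.52e-05) and its interaction 7.68 ± 1.14 (adjusted p = 0.00676).

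Cxcl10 (chr5:92346638-92348889, minus strand) stood at 5.65, 1.79, 0.593 and 6.61 CPM in uninjured WT and at 0.343, 0.742 and 0.353 CPM in uninjured Stat3cKO. After LPS it stood at 6412, 1332, 959 and 7999 CPM in Stat3cKO, where replicates 1 and 4 were higher than 2 and 3, and above all 4 WT LPS libraries named earlier. The interaction was 8.86 ± 1.78 (adjusted p = 0.0330), and 11.69 (adjusted p = 2.96e-04) without WT LPS replicate 3. It was called in 7 of 15 fits that each left out 1 library (adjusted p 2.96e-04 to 0.159).

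Class I antigen presentation was represented by the light chain B2m, the peptide transporter subunit Tap2 and tapasin (Tapbp). B2m stood at 350.3 to 511 CPM in uninjured WT, 445 to 945 CPM in WT LPS, 371 to 462 CPM in uninjured Stat3cKO and 1573 to 2673 CPM in Stat3cKO LPS. Its interaction was 1.71 ± 0.31 (adjusted p = 0.0196), that of Tap2 2.38 ± 0.43 (adjusted p = 0.0196) and that of Tapbp 2.13 ± 0.32 (adjusted p = 0.00727), and for all 3 the LPS groups did not overlap. Other antiviral genes were the virus-tethering protein Bst2 (3.66 ± 0.71), the nucleotide hydrolase Samhd1 (4.05 ± 0.75), the membrane protein Ifitm3 (2.18 ± 0.40), the mitochondrial kinase Cmpk2 (3.03 ± 0.50) and the ligase Herc6 (3.41 ± 0.61). Samhd1 did not move past the threshold in WT (adjusted p = 0.909) and stood at 185 to 259 CPM in Stat3cKO LPS against 6.30 to 41.8 CPM in WT LPS. Ifi44 had 1, 0, 169 and 358 counts in uninjured WT and 0, 3 and 1 in uninjured Stat3cKO. After LPS it stood at 16.5, 50.9, 16.2 and 4.53 CPM in WT and 199, 407, 234 and 123 CPM in Stat3cKO. Its interaction was 10.11 ± 2.02 (adjusted p = 0.0330). The genotypes differed by -6.65 ± 1.75 (adjusted p = 0.281) uninjured and 3.45 ± 1.04 (adjusted p = 0.124) after LPS. For Ifitm3 these differences were -1.24 ± 0.30 (adjusted p = 0.189) and 0.94 ± 0.27 (adjusted p = 0.102). The ubiquitin ligase Rnf19b stood at 44.7, 30.6, 93.4 and 26.4 CPM in WT LPS and 717, 164, 129.5 and 550.1 CPM in Stat3cKO LPS (interaction 3.85 ± 0.75, adjusted p = 0.0302). Leaving out 1 library ended the call of Bst2, Ifi44 and Rnf19b in 8, 8 and 10 of 15 fits.

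Some of the genes in these classes are not best known as interferon-induced. Hopx, a small homeodomain protein, stood at 138 to 237 CPM in WT LPS and 411 to 554 CPM in Stat3cKO LPS (interaction 1.96 ± 0.32, adjusted p = 0.0115). Gna13, a G protein subunit, stood at 224 to 354 and 607 to 821 CPM (interaction 1.53 ± 0.31, adjusted p = 0.0330). The signal peptidase subunit Spcs1, the selenoprotein gene Sepw1 and the actin-capping subunit Capza2 had interactions of 1.60 ± 0.32, 1.61 ± 0.34 and 1.07 ± 0.23. The fall was of Lgi4, a secreted protein known for its part in Schwann cell myelination. Lgi4 stood at 507, 689, 150.4 and 631 CPM in WT LPS, where replicate 3 was lowest, and at 67.2, 83.3, 145 and 84.1 CPM in Stat3cKO LPS, where all 4 libraries were below it; its interaction was -2.37 ± 0.48 (adjusted p = 0.0334). Cd68, a lysosomal protein of macrophages and microglia, had 1, 2 and 1 counts in uninjured Stat3cKO against 257, 421, 187 and 229 in uninjured WT, and overlapped between the LPS groups at 4.29 to 9.74 and 2.30 to 16 CPM. Its interaction (7.89 ± 1.60, adjusted p = 0.0334) thus lay in the uninjured libraries. Of 15 fits that each left out 1 library, the interaction was called in 14 for Hopx, 8 for Gna13, 6 for Spcs1, 5 for Sepw1, 3 for Capza2, 2 for Lgi4 and 7 for Cd68. The highest adjusted p came without an uninjured Stat3cKO library for each of these 7 genes, and reached 0.172 for Sepw1.

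Promoter sequences are shown for the reduced Lcn2 and Serpina3n, for the enlarged Ifit1, Igtp and Cxcl10 and for Steap4, a kept response, since these are the genes on which the classes turn. They run from 250 bases before to 50 after the transcription start, 5′ to 3′ on the gene's strand, from RefSeq (GRCm38.p6). Capitals mark TTCNNNGAA, its stricter form TTCCNGGAA, or GAAANNGAA on either strand, and overlapping matches run together.
Lcn2 (chr2:32387690-32387989, minus strand): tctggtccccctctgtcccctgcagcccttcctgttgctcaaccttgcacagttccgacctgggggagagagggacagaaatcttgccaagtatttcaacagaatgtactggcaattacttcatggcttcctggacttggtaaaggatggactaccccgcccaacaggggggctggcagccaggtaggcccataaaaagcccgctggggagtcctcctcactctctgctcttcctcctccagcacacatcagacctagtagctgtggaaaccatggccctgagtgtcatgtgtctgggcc
Serpina3n (chr12:104406458-104406757, plus strand): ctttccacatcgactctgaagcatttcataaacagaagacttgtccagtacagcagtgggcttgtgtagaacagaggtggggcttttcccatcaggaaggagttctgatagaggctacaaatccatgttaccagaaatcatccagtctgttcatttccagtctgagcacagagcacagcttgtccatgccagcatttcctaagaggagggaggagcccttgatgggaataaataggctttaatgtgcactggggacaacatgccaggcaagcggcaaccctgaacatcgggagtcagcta
Ifit1 (chr19:34640639-34640938, plus strand): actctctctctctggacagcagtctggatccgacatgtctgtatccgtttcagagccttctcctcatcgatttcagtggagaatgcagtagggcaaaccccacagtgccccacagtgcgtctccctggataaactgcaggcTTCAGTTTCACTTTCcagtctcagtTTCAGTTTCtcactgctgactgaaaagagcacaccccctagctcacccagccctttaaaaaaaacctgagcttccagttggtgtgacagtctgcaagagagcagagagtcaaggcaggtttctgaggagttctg
Igtp (chr11:58199306-58199605, plus strand): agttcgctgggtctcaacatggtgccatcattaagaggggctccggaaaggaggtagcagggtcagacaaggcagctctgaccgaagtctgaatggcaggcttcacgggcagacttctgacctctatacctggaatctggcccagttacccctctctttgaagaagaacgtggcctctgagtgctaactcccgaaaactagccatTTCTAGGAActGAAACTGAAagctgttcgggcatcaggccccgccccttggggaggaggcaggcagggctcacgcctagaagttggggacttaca
Cxcl10 (chr5:92348840-92349139, minus strand): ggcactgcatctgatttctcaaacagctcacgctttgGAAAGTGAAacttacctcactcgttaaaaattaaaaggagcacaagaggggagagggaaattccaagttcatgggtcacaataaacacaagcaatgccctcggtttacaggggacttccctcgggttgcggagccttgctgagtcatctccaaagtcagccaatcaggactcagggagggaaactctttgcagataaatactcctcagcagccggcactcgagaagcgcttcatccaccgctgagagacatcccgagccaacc
Steap4 (chr5:7960222-7960521, plus strand): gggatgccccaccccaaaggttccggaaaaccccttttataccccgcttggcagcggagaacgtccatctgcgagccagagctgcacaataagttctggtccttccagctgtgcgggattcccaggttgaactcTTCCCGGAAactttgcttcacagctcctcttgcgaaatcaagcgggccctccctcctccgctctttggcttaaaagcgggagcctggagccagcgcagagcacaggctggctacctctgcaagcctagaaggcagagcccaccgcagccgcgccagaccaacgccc
Ifit1 held 3 GAAANNGAA matches on the reverse strand, Igtp held 1 TTCNNNGAA and 1 GAAANNGAA match, Cxcl10 held 1 GAAANNGAA match and Steap4 held TTCCCGGAA, which matches both palindromes. Lcn2 and Serpina3n held no match in this window. Over 27025 genes with a listed promoter, 9.55% held TTCNNNGAA, 1.35% TTCCNGGAA and 9.76% GAAANNGAA. GAAANNGAA was in 10 of 22 gained or enlarged genes with a listed promoter (45.5%), in 20 of 164 kept genes (12.2%) and in 0 of 7 lost or reduced genes. TTCNNNGAA was in 5 of 22 (22.7%), 14 of 164 (8.54%) and 1 of 7 (14.3%). A match describes letters in the sequence, not a binding site.

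In the interferon lists more members passed the test for a rise in Stat3cKO than in WT, as did all genes tested (4.63% against 2.91%). The interaction was called above 0 for a minority of each list's members, against 0.300% of all genes tested. Interaction estimates were above 0 for 4981 of 10122 members of all kinds. Of 25 members of the type I interferon effector list, 12 rose in WT and 23 in Stat3cKO, 8 had a called interaction above 0 and all 25 estimates were above 0. Their median response was 1.88 in WT and 5.22 in Stat3cKO, against 0.02 and -0.01 over all genes tested. Of 10 interferon gamma inducible GTPases, 6 rose in WT and 10 in Stat3cKO, with medians of 3.43 and 7.72; all 10 interactions were above 0 and 1, that of Igtp, was called. Gbp2, a guanylate-binding protein, went from 14.8 to 181 CPM in WT and from 8.56 to 1867 CPM in Stat3cKO by group means, with an interaction of 4.15 ± 1.0 (adjusted p = 0.0797). Of 17 members of the antigen presentation list, 6 rose in WT and 15 in Stat3cKO, and all 17 interactions were above 0. Of these, 4 were called, those of B2m, Tap2, Tapbp and the T cell ligand gene Cd274, which the list includes. The interferon regulatory factor Irf1 stood at 17, 12.6, 41.4 and 9.67 CPM in WT LPS and at 763, 288, 135 and 939 CPM in Stat3cKO LPS, without overlap, but its responses of 4.95 and 6.17 were both called and its interaction was 1.22 ± 1.29 (adjusted p = 0.883). Of the receptor genes, Ifnar1 and Ifngr1 had interactions of -0.26 ± 0.35 (adjusted p = 0.918) and 0.13 ± 0.68 (adjusted p = 0.986).

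Levels of these lists by library show the same order. Type I interferon effectors averaged 2.62, 2.87, 2.77 and 3.13 in log2(CPM + 1) in uninjured WT libraries 1 to 4, and 2.66, 2.62 and 2.39 in uninjured Stat3cKO. After LPS they averaged 4.61, 4.85, 5.35 and 4.50 in WT and 7.94, 7.30, 6.82 and 7.57 in Stat3cKO. No WT LPS library reached the lowest Stat3cKO LPS library, WT LPS replicate 3 included. For acute phase and iron handling genes the LPS averages were 6.57, 7.26, 7.64 and 7.35 in WT and 6.89, 6.56, 6.43 and 6.92 in Stat3cKO, which overlapped. Levels of the 7 microglial markers among the members also separated the LPS groups, averaging 3.69 to 4.18 in WT LPS and 4.52 to 5.29 in Stat3cKO LPS, without overlap, against 2.39 to 4.97 and 2.61 to 4.08 uninjured. Their median response was 0.10 in WT and 2.44 in Stat3cKO, and 6 of 7 interaction estimates were above 0. The part of microglia, or of the other cell types named further on, in the interferon responses was not tested.

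**Figure D3:**
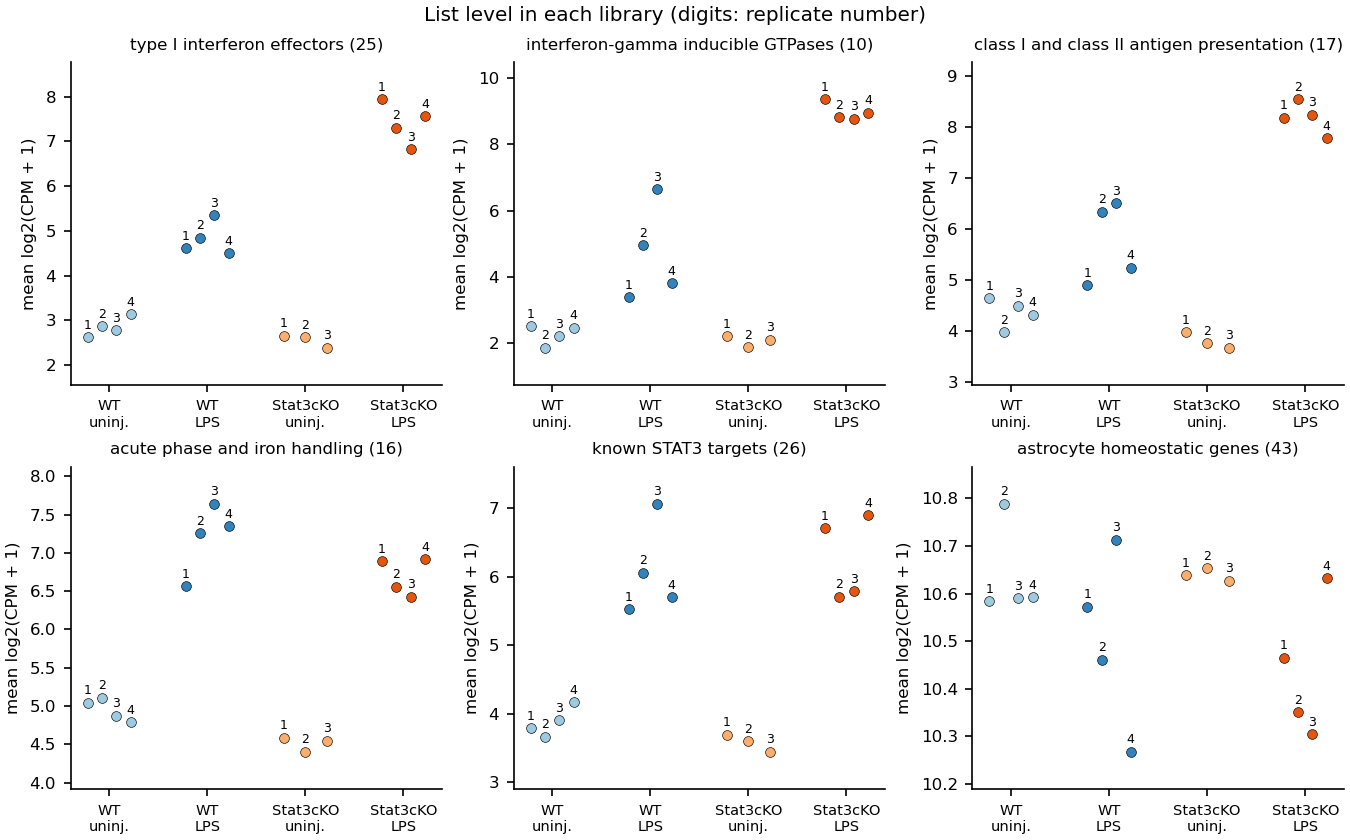
Mean log2(CPM + 1) over the members of 6 gene lists (number of genes in brackets) in each library, with digits for replicate numbers. In the 3 interferon-related lists (top) each Stat3cKO LPS library lies above every WT LPS library, while acute phase genes, known STAT3 targets and astrocyte homeostatic genes (bottom) overlap between the LPS groups.

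Of the 204 kept responses, 148 rose and 56 fell. A missed threshold does not show equal responses: for 66 of them (33 rises and 33 falls) the 95% interval of the interaction lay within -1 and 1. Among the 148 rises, 107 had an interaction estimate above 0. Saa3, an acute phase serum amyloid (chr7:46711998-46715700, minus strand), had 1, 2, 0 and 0 counts in uninjured WT and 0, 1 and 1 in uninjured Stat3cKO. It rose to 19.7, 20.2, 8.13 and 63.5 CPM in WT LPS and 33.7, 130.3, 66.8 and 39.4 CPM in Stat3cKO LPS, which overlapped. The ratio to uninjured was 3108 (95% counting interval 1063 to 15073) in WT and 8309 (2300.0 to 68618) in Stat3cKO. Steap4, a metalloreductase (chr5:7960457-7982213, plus strand), went from 2 counts in each uninjured group to 6.77, 37.3, 63.1 and 14.7 CPM in WT and 22.8, 12.6, 5.62 and 25.2 CPM in Stat3cKO, ratios of 4129.5 (1143 to 34103) and 1962 (543 to 16202). The LPS groups overlapped, and the interaction interval of -4.57 to 2.48 was wide. The scavenger receptor Marco, the protease inhibitor Serpina3f and the antiviral gene Rsad2 were also kept, with interactions of 0.67 ± 1.95, 0.77 ± 3.24 and 1.02 ± 1.53. For Rsad2 the levels differed after LPS all the same, at 9.08, 9.16, 28.5 and 24.5 CPM in WT and 731, 217, 141 and 622 CPM in Stat3cKO (4.59 ± 0.78, adjusted p = 0.00302).

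Some kept responses ran from a different starting level. Hspb1, a small heat shock protein (chr5:135887919-135889563, plus strand), stood at 22.9, 57.3, 23.1 and 12.1 CPM in uninjured WT and 148, 1108, 2285 and 433 CPM in WT LPS. In Stat3cKO it stood at 2.61, 1.41 and 1.91 CPM uninjured and 33.7, 43.8, 31.1 and 60.1 CPM after LPS. Each Stat3cKO library was below each WT library of the same treatment, and 3 of 4 Stat3cKO LPS libraries were within the range of uninjured WT. The responses of 5.11 ± 0.67 and 4.41 ± 0.75 differed by -0.69 ± 0.85 (adjusted p = 0.900), with an interval of -2.47 to 1.08, while the genotypes differed by -3.86 ± 0.73 (adjusted p = 0.0277) uninjured and -4.56 ± 0.66 (adjusted p = 7.27e-04) after LPS. Timp1, an inhibitor of matrix metalloproteinases, stood at 58.2, 374, 366 and 168 CPM in WT LPS and at 12.9, 23.4, 14.3 and 5.94 CPM in Stat3cKO LPS, with no overlap. In uninjured WT it stood at 8.65 CPM in replicate 4 and at 0.0338 to 0.852 CPM in the others. Its responses were 6.64 ± 1.32 and 6.15 ± 1.53, and its difference after LPS was -4.09 ± 1.17 (adjusted p = 0.0985). The Timp1 interaction of -0.49 (adjusted p = 0.977) ran from -3.50 to 2.74 over the 15 fits that each left out 1 library. Osmr, the oncostatin M receptor, had 5, 1 and 1 counts in uninjured Stat3cKO against 356, 1, 355 and 586 in uninjured WT. It stood at 59.2, 66.8, 171 and 44.7 CPM in WT LPS and 51.6, 14.3, 28.5 and 41.7 CPM in Stat3cKO LPS, which overlapped (interaction 6.0 ± 1.51, adjusted p = 0.0967).

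Gfap and C3 belonged to no class, but their levels parted by genotype. Gfap, the astrocyte intermediate filament protein whose promoter drives Cre here, stood at 16112, 22037, 16119 and 17623 CPM in uninjured WT and 5124, 4731 and 5129 CPM in uninjured Stat3cKO. After LPS it stood at 20121, 23562, 23254 and 19537 CPM in WT and 10838, 8777, 10349 and 9514 CPM in Stat3cKO, so that Stat3cKO LPS remained below uninjured WT. It rose in Stat3cKO (0.98 ± 0.13, adjusted p = 1.05e-04) and not past the threshold in WT (0.27 ± 0.11, adjusted p = 0.232), and the interaction was 0.72 ± 0.17 (adjusted p = 0.0745). C3, the central complement component, stood at 572 to 779 CPM in WT LPS and 61.9 to 249 CPM in Stat3cKO LPS; the genotypes differed by -3.06 ± 0.40 (adjusted p = 0.00207) uninjured and -1.95 ± 0.34 (adjusted p = 0.00355) after LPS. Vim, another intermediate filament, rose in WT (1.08 ± 0.22, adjusted p = 0.00825) and had 0.43 ± 0.24 (adjusted p = 0.341) in Stat3cKO, with an interaction of -0.65 ± 0.32 (adjusted p = 0.555).

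Kept falls included genes of astrocyte homeostasis. The water channel Aqp4 stood at 2165, 3609.8, 3273 and 3972 CPM in uninjured WT and 1778, 1867, 1988 and 1671 CPM in WT LPS. In Stat3cKO it stood at 3712, 3430.4 and 3824 CPM uninjured and 1754, 1046, 1419 and 1838 CPM after LPS. LPS libraries were below uninjured ones in both genotypes, with responses of -0.83 ± 0.18 and -1.27 ± 0.19. The gap junction protein Gja1 fell by 0.79 and 1.20 on the log2 scale, and the potassium channel Kcnj10 fell by 0.53 and 0.80. Of 43 members of the homeostatic list, 6 fell and 2 rose in WT, 4 fell and 2 rose in Stat3cKO, and 0 interactions were called by edgeR. The largest kept falls were of Tagln3 (-2.40 ± 0.41 in WT and -1.83 ± 0.43 in Stat3cKO), Pamr1 (-1.57 and -2.18), the adenylate kinase Ak4 (-1.41 and -2.25), Them4 (-1.36 and -2.20) and the metalloreductase Steap3 (-1.36 and -2.11). Of 34 sterol and fatty acid synthesis genes, 4 fell in WT and 7 in Stat3cKO, 3 of them kept in both (Dhcr7, Scd2 and Fads2), and 0 interactions were called. Fasn, fatty acid synthase, had the smallest interaction p of that list, -1.32 ± 0.40 (adjusted p = 0.209).

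Of 26 known STAT3 targets, 8 rose in WT and 12 rose and 1 fell in Stat3cKO. The interaction was called for 1 of the 26, Serpina3n, against 39 of 10341 genes tested. The list's median response was 2.02 in WT and 3.45 in Stat3cKO. Interaction estimates were above 0 for 18 of 26 targets, against 4981 of 10122 over all members. Socs3, the feedback inhibitor, stood at 0, 0, 0.0556 and 1.78 CPM in uninjured WT, 2.97, 12.3, 51.9 and 19.1 CPM in WT LPS, 1.11, 0.0445 and 2.99 CPM in uninjured Stat3cKO and 39.3, 10.8, 5.67 and 68.5 CPM in Stat3cKO LPS. The LPS groups overlapped, neither the WT response of 5.53 ± 1.63 (adjusted p = 0.0593) nor the Stat3cKO response of 4.48 ± 1.76 (adjusted p = 0.146) passed the threshold, and the interaction was -1.05 ± 1.98 (adjusted p = 0.946). Junb, an AP-1 subunit, was kept at 4.62 and 5.05. Of the 15 IL-6 family receptor and JAK-STAT3 genes, Osmr and Stat3 rose in both genotypes, and Il6st, the gp130 receptor, fell in Stat3cKO (-0.79 ± 0.21, adjusted p = 0.0264). Of 16 acute phase and iron handling genes, 9 rose in WT and 10 in Stat3cKO, with 2 interactions called below 0 (Lcn2 and Serpina3n) and 0 above. Slc39a14, a metal transporter, rose in WT (1.96) and had a response of 0.41 in Stat3cKO, with an interaction of -1.55 ± 0.43 (adjusted p = 0.162).

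In the 3 astrocyte reactivity lists, interactions were called among the pan-reactive genes only. Over all genes tested, the interaction was called above 0 for 0.300% and below 0 for 0.0774%. Of 13 pan-reactive genes, 9 rose in each genotype, and 3 interactions were called, below 0 for Lcn2 and Serpina3n and above 0 for Cxcl10; the median response was 4.12 in WT and 2.71 in Stat3cKO. Of 9 A1-type genes, 8 rose in each genotype with no called interaction by edgeR, and medians were 3.48 and 6.67. Of 6 A2-type genes, 1 rose in WT and 0 in Stat3cKO with no called interaction by edgeR, and both medians were 1.61. The A1-type list shares Gbp2, Iigp1, Psmb8 and class I genes with the interferon lists. Of 27 glucocorticoid-responsive genes, 7 rose in WT and 14 in Stat3cKO with 1 called interaction, that of Lcn2. Fkbp5, a chaperone induced by glucocorticoids, was kept at 2.95 and 3.52, and the lipid droplet protein Plin4 at 3.17 and 3.01. Of 20 AP-1 and immediate early genes 2 rose in WT and 9 in Stat3cKO, and of 21 NF-kB genes 2 and 9, with 0 interactions called in either list. Nfkbia, the NF-kB inhibitor, had 2.08 ± 0.66 (adjusted p = 0.252). Of 33 proteasome genes, 1 rose in WT and 7 in Stat3cKO, and 29 interaction estimates were above 0, against 4981 of 10122 over all members.

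**Figure D4:**
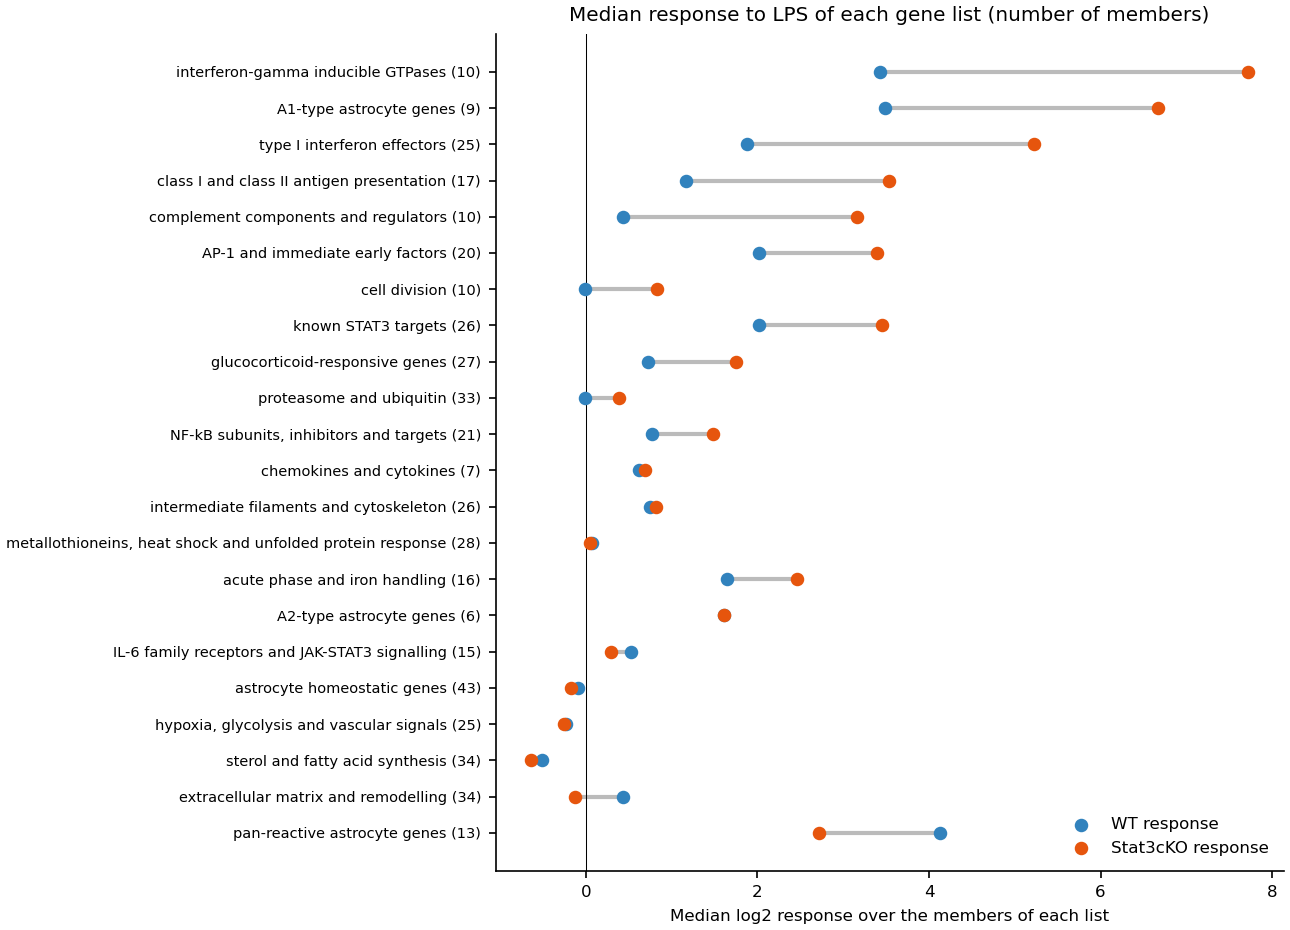
Median log2 response to LPS over the members of each gene list shown, in WT (blue) and Stat3cKO (orange), ordered by the median interaction, with the number of members in brackets. The interferon gamma inducible GTPases went from 3.43 in WT to 7.72 in Stat3cKO, and the pan-reactive list from 4.12 to 2.71.

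Genes listed in the table of only 1 genotype could not enter the interaction, 227 in WT and 1371 in Stat3cKO, and their absence from the other table was set by a filter the sources used here do not state. Known STAT3 targets listed for WT only were Lrg1, a secreted acute phase glycoprotein, and Bcl3, an NF-kB cofactor. Lrg1 counts were 0, 0, 0 and 2 in uninjured WT, then 713, 2014, 4078 and 1690 with LPS. Bcl3 counts were 1, 407, 355 and 280 uninjured, then 1629, 2002, 3949 and 2062 with LPS. All WT LPS libraries of both genes were above all uninjured ones, as were 48 of the 227 genes (21.1%), against 6.48% of the shared genes in WT. The 227 genes were scarcer, with a median WT LPS level of 4.49 CPM against 29.0 CPM for the shared genes. A gene can pass a filter through the group where it is high, so neither its listing nor such a share tests a difference. Listed for Stat3cKO only were 9 of 40 type I interferon effectors, 5 of 16 interferon gamma inducible GTPases and 7 of 28 antigen presentation genes. Of these lists, 0 genes were listed for WT only. Over all genes, 1371 of 11712 listed for Stat3cKO and 227 of 10568 listed for WT were listed for that genotype only. The limit set by the filter applies to these listings and to the rises below. The chemokine Cxcl9 had 4, 3 and 1 counts in uninjured Stat3cKO and 15311, 21530, 13940 and 8352 after LPS. For the antiviral GTPase Mx1, 1, 1 and 0 counts uninjured stood against 4461, 1816, 1182 and 3503 with LPS. For Socs1, an inhibitor of interferon signalling, 221, 0 and 0 stood against 3270, 2736, 1315 and 3242. In Stat3cKO, 223 of its 1371 genes (16.3%) had all LPS above all uninjured libraries, against 13.1% of the shared genes. Their median Stat3cKO LPS level was 3.64 CPM against 27.5 CPM for the shared genes, and these shares are likewise no test.

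Transcripts of other cell types were counted too. All 16 oligodendrocyte markers were members, summing to 6424 to 11042 CPM in uninjured WT, 5719 to 12095 in WT LPS, 5969.8 to 7712 in uninjured Stat3cKO and 9454 to 12517 CPM in Stat3cKO LPS, with 0 called interactions. Of 18 microglial markers 7 were members, and their summed level was 113 to 259.6 CPM in uninjured WT, 116 to 215 in WT LPS, 143 to 207 in uninjured Stat3cKO and 207 to 292 CPM in Stat3cKO LPS. The sums overlapped between the LPS groups, unlike the mean log2 levels given above. Of those 7, 1 (Olfml3) rose, in Stat3cKO, and 0 interactions were called. Of 14 monocyte and macrophage markers 2 were members, Cd68 and Cd14, summing to 5.94 to 22.2 CPM in WT LPS and 4.92 to 33.2 CPM in Stat3cKO LPS. Of the markers listed for neutrophils (12), T and B cells (14) and erythrocytes (7), 0 were in both tables. Lck, a kinase of T cells, was listed for Stat3cKO only, with 0, 0 and 0 counts uninjured and 746, 279, 166 and 1222 with LPS. Csf1r, Itgam, Tyrobp, Lyz2 and Lyve1 were also listed for Stat3cKO only, and Tmem119 and P2ry12 for WT only. Itgam counts in Stat3cKO were 1, 186 and 32 uninjured, then 912, 765, 495 and 660 with LPS. P2ry12 counts in WT were 251, 456, 217 and 835 uninjured, then 366, 0, 0 and 3 with LPS.

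Call counts moved with single libraries. With each of the 15 libraries left out in turn, 10 to 86 interactions above 0 and 3 to 33 below 0 were called, and the 39 genes kept the sign of their estimates in every such fit. Of the 39, 8 stayed called in all 15 fits (Cd274, Ifit1, Ifit2, Ifit3, Igtp, Slc14a2, Tapbp and Zfp322a). Between 10 and 14 interactions above 0 were called without 1 of the 3 uninjured Stat3cKO libraries or without Stat3cKO LPS replicate 1, and the highest counts came without WT LPS replicate 3.

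**Figure D5:**
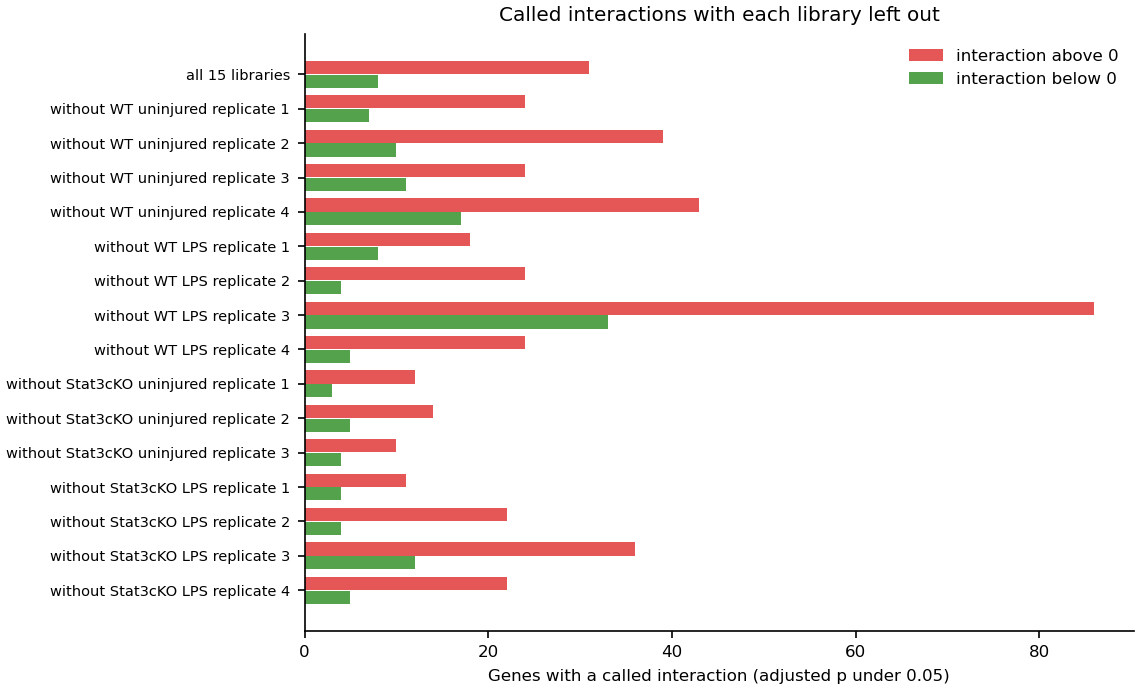
Number of genes with a called interaction above 0 (red) and below 0 (green) with all 15 libraries and with each library left out. Counts were 31 and 8 with all libraries and 86 and 33 without WT LPS replicate 3.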

How the data were processed

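Ribosome-associated messenger RNA of 15 libraries was analysed. The authors deposited whole-number raw counts per gene and library in 1 table per genotype; the mm10 genome, the aligner STAR (2.4.0j), the counter HTSeq (0.6.0) and edgeR (3.28.0) are named in the submitters' processing notes, with no parameters. The filter behind each table's genes is not given in the sources used here, and whether reads were counted by strand is not stated, so overlapping or near-identical genes (Ifit, Gbp, Serpina3 and H2 families) may share reads. Further tables of the series, of another genotype, were not used. Members and gene lists were chosen with earlier results of these data known, and a gene can be in several lists.

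Counts of the 10341 shared genes were fitted in edgeR 4.0.16 (R 4.3.3) with TMM scaling, 1 mean per group and the quasi-likelihood F test; filterByExpr removed 0 genes. Adjusted p-values are Benjamini-Hochberg over all genes tested, with a threshold of 0.05, and apply to every test named above. Positions are GENCODE M21 (GRCm38), matched by symbol. CPM are counts divided by the scaled library size, to a common total; log2 values are estimate ± SE. Counting intervals are 95% exact (Clopper-Pearson), and like the 3-count limit cover counting error only, since reads carry no molecular identifiers. Named genes were, among members with at least 1 CPM in a group, the 10 largest interactions per class, the 10 largest kept responses and 5 kept falls, the smallest interaction p of each list, each marker list's most abundant member, and a set of known genes; members outside this rule were named after their values were seen, and 1 gene and 1 list are not reported here. The script was tested on simulated data. Replicate pairs differed by more than counting noise, with a chi-square per degree of freedom of 194 to 1302 over 21 pairs. Alternatives were RLE and upper quartile scaling, whole-table library totals, no filter, members alone, DESeq2 1.42.0, limma 3.58.1 voom, robust dispersions, 2-group fits and leaving out each library.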

Additional observations from a re-analysis of the deposited data

Results flagged for a closer look

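Among the named genes, 25 values lay far from the other libraries of their group by Dixon's test, which flags about 1 in 20 groups by chance. The critical value was for groups of 4 libraries, so uninjured Stat3cKO, with 3, was not screened. In Stat3cKO LPS replicate 1 this was Fasn at 122 CPM. In WT LPS replicate 3 these were Cd14 at 12.4, Cebpd at 423, Cxcl10 at 248, Gbp5 at 111, Ifi47 at 24.1, Nfkbia at 177 and Sall1 at 32.2 CPM. In WT uninjured replicate 1 this was Cebpd at 42 CPM. In WT uninjured replicate 2 these were Batf3 at 8.62, Cnr1 at 0.0113, Marco at 0.0225, Olig1 at 761, Osmr at 0.0113 and Vim at 376 CPM. In WT uninjured replicate 3 these were Frem2 at 0.0185, Irf1 at 2.52, Pamr1 at 105 and Tmem140 at 0.148 CPM. In WT uninjured replicate 4 these were Ifit1 at 1.28, Lgals9 at 0.0354, Oasl1 at 0.0472, Serpina3f at 0.0118, Socs3 at 1.78 and Timp1 at 8.65 CPM. Values at or under about 0.05 CPM rest on a few counts.

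The response to LPS differed between genotypes, by the interaction term of the 4-group fit, for 18 of the named genes reported here. The log2 interactions above 0 were Ifit1 10.08, Igtp 4.72, Cd274 7.68, Ifit3 3.83, Samhd1 4.05, Ndufc2 1.34, Myoc 3.20, Bst2 3.66, Rnf19b 3.85, Ifi44 10.11, Cxcl10 8.86, Cd68 7.89 and Scg5 1.83. Those below 0 were Slc14a2 -12.71, Serpina3n -2.75, Cnr1 -11.51, Frem2 -11.85 and Lcn2 -4.95. The estimates of Slc14a2, Cnr1 and Frem2 set a group with at most 1 count against the others and depend on the prior count of the fit.

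The Stat3cKO table lists 4 genes of chromosome Y and the WT table lists 0, as described above.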

How the results depend on the processing

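No paired analysis was possible because the replicate numbers only name libraries and the labels give no pairing. The 39 genes with a called interaction kept their direction under every alternative that tested them. Under RLE scaling, whole-table totals and no filter 39 interactions were called, and 38 among members alone. Upper quartile scaling moved the median of all genes by -0.10 in the interaction and -0.11 in the Stat3cKO response, and called 378 falls in Stat3cKO and 71.8% of interactions above 0, against 79.5% with TMM. DESeq2 called 125 interactions above 0 and 41 below, 23 lost or reduced, 319 kept and 110 gained or enlarged responses, with 389 falls in WT and 400 in Stat3cKO. Limma's voom with sample weights called 69 above 0 and 35 below (66.3% above), 19 lost or reduced and 83 gained or enlarged responses, and 992 rises and 708 falls in Stat3cKO. It called 27 of the 39 genes, and neither Lcn2 nor Cxcl10 was among them. Robust dispersions called 18 above 0 and 3 below, 2 lost or reduced and 17 gained or enlarged responses. With each response fitted on its own 2 groups, 124 responses were kept, 132 genes rose and 89 fell in WT, and 766 rose and 383 fell in Stat3cKO. The causes were not tested.

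Leaving out 1 library gave 10 to 86 interactions above 0 and 3 to 33 below, 2 to 21 lost or reduced, 134 to 210 kept and 10 to 91 gained or enlarged responses, 188 to 298 rises and 130 to 249 falls in WT, and 245 to 547 rises and 114 to 339 falls in Stat3cKO. Between 12 and 39 of the 39 genes were still called. For the named genes' interactions, 945 of these refits left the call as it was, 94 ended one and 11 made one. Among the other alternatives the counts were 523, 23 and 14. With 3 uninjured Stat3cKO libraries and a median interaction SE of 0.60, smaller differences were not detectable.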
